A study of Arabidopsis thaliana with 6 samples.

Results

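The aldehyde dehydrogenase (ALDH) genes of Arabidopsis thaliana were compared between root cells sorted for a WOX5::GFP reporter and root cells sorted for a pTMO5::GFP reporter. Members were all genes whose symbol in the probe annotation or the gene table starts with ALDH. The gene table held 14 such genes, and 8 of them had a probe set assigned to 1 gene, among 13355 genes measured in this way. Probe sets were to be chosen by their mean log2 intensity over all 6 arrays, but each of the 8 genes had a single one. The family, with ALDH6B2, ALDH7B4 and ALDH10A9 as its leading members, was itself picked with the WOX5 to TMO5 differences known, so its differences are a description rather than independent evidence. ALDH2B4, ALDH2B7, ALDH3H1, ALDH3I1, ALDH5F1 and ALDH12A1 had no named probe set and were not analysed here, nor were P5CS1 and P5CS2, which belong to the family under other symbols.

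Aldehyde dehydrogenases oxidise aldehydes to carboxylic acids, with NAD or NADP as the electron acceptor. Plants use them in the breakdown of amino acids, in polyamine and phenylpropanoid metabolism, in carbohydrate metabolism and in clearing reactive aldehydes made under stress. Family numbers follow sequence similarity, so ALDH10A8 and ALDH10A9 are close relatives, whereas the other members measured here belong to separate families or subfamilies.

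All 6 samples were RNA from fluorescent cells sorted from seedlings 5 days old of the ecotype Col-0, by the source labels and the design text, with 3 arrays from WOX5::GFP plants and 3 from pTMO5::GFP plants. WOX5 marks the quiescent centre of the root stem cell niche, and TMO5 marks young vascular and xylem cells. The sample descriptions attach quiescent centre to WOX5 and xylem to TMO5, but the cell type tags have them swapped, so groups are named by reporter. The treatment text names roots, and leaves a choice of protoplasted cells or tissue without saying which applies to these arrays, and the labelling text names both one-cycle and two-cycle protocols without assigning these arrays. Whether the arrays of a group stem from independently grown plants is not in the labels. The p-values therefore reflect the spread between these arrays alone, which may be technical. A smaller share of expressing cells and less RNA per cell cannot be told apart in such samples.

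Of the markers of the stem cell niche, 5 of 8 had a named probe set, and all 5 (AGL42, BBM, JKD, ACR4 and SPT) were higher on the WOX5 arrays, with sums of 2461 to 4249 intensity units against 1103 to 1215. Of 3 measured xylem and vascular markers, PHV was lower and IAA20 higher on the WOX5 arrays, while LHW did not pass the test, and their sums were 1719 to 2406 against 1610 to 1712. WOX5 and TMO5 themselves had no named probe set. The ground tissue markers summed to 278 to 576 intensity units on the WOX5 arrays and 123 to 148 on the TMO5 arrays. The 2 measured differed in direction, so the sum does not speak for both. AT1G62500 was higher, at a log2 difference of 3.62. AT1G09750 did not pass, at a log2 difference of -1.21 (limma adjusted p = 0.0560), although its WOX5 values all lay below its TMO5 values. The 2 root hair markers summed to 96.2 to 135 against 149 to 349, and the 1 root cap marker ran from 22.4 to 141 against 16.6 to 93.3, with none passing and none at 0. The log2 ratio of 3′ to 5′ signal of the GAPDH control was 0.09 to 0.20 on the WOX5 arrays and 0.28 to 0.41 on the TMO5 arrays, and those of actin and ubiquitin overlapped between groups. WOX5 replicate 2 stood apart, since its log2 values differed from WOX5 replicates 1 and 3 with SDs of 0.60 and 0.59, against 0.34 between those 2 arrays, over probe sets outside the dimmest 33.3%. Among the WOX5 arrays, all 5 niche markers were highest on replicate 2, with BBM at 2036 against 1055 and 1101 on replicates 1 and 3. Both ground tissue markers were lowest there, with AT1G62500 at 249 against 521 and 488. The part of these differences in the results for the ALDH genes was not tested.

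Of the 8 ALDH genes, 5 were higher in WOX5 cells, 1 was lower and 2 did not pass the test. ALDH6B2, ALDH2C4, ALDH3F1 and ALDH7B4 were higher by 3.0-fold to 3.99-fold and ALDH10A8 by 1.84-fold, while ALDH10A9 was lower by 1.77-fold. Differences are WOX5 minus TMO5 on the log2 scale from limma, with p-values adjusted by the Benjamini-Hochberg method over 22746 probe sets and a threshold of 0.05. Over all probe sets 23.8% passed, 14.3% as higher and 9.49% as lower. With dim probe sets filtered out, 3858 of 16807 were higher and 3117 lower, with 5 ALDH genes higher and 1 lower. The groups did not overlap for 7 of the 8 genes, where 46.7% of all probe sets had groups that did not overlap. The median log2 difference was 1.23 over the 8 genes and 0.03 over all probe sets.

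The balance of calls over all probe sets moved with the scaling, and the direction of the 6 ALDH calls did not. Calls higher in WOX5 made up 60.1% of all calls as deposited, 47.2% with quantile normalization and 29.7% after each array was centred at its median. Quantile normalization set the middle of all probe sets at a log2 difference of -0.14, and centring set it at -0.35. The centred scaling moved every gene's difference by the same amount, to 1.62 for ALDH6B2 and to -1.20 for ALDH10A9, and it turned the sign of ALDH22A1, which had passed under neither.

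**Figure D1:**
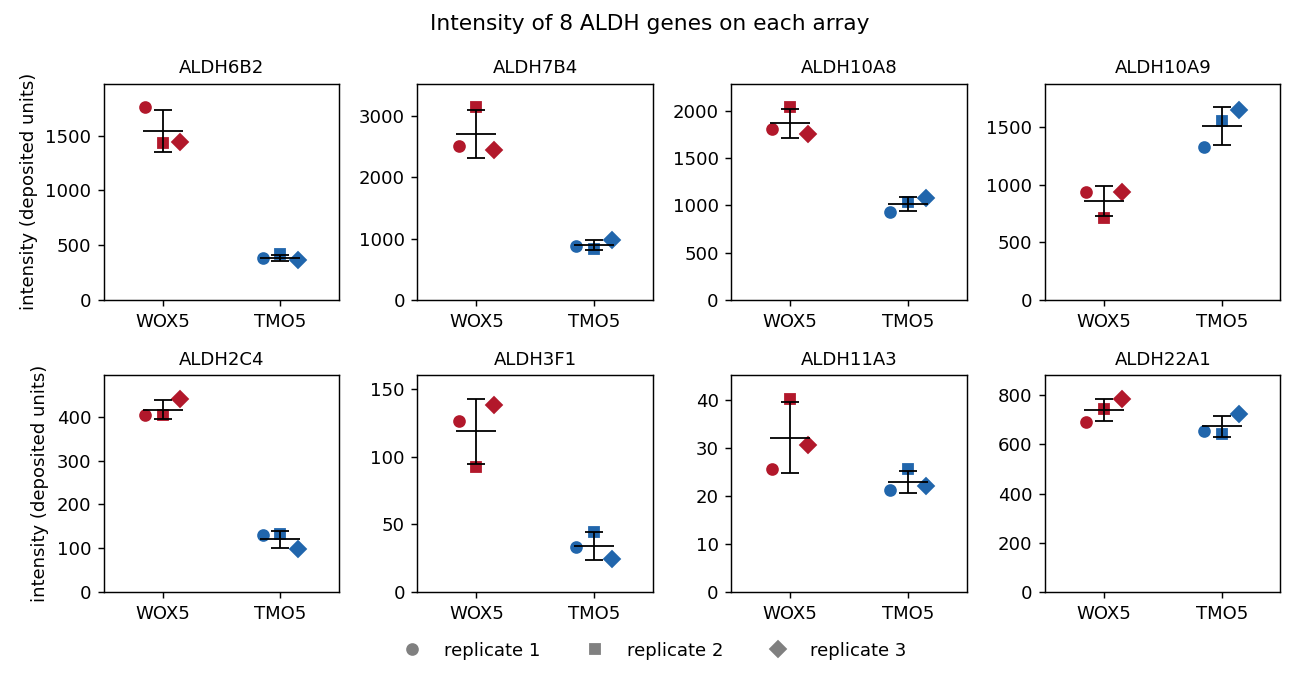
Intensity of each ALDH gene, in deposited units on a linear axis from 0, on the 3 WOX5 arrays (red) and the 3 TMO5 arrays (blue), with marker shape for the replicate number and black bars for the mean and SD. The groups lie apart for 7 genes, with WOX5 above TMO5 except for ALDH10A9, and they overlap for ALDH22A1.

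**Figure D2:**
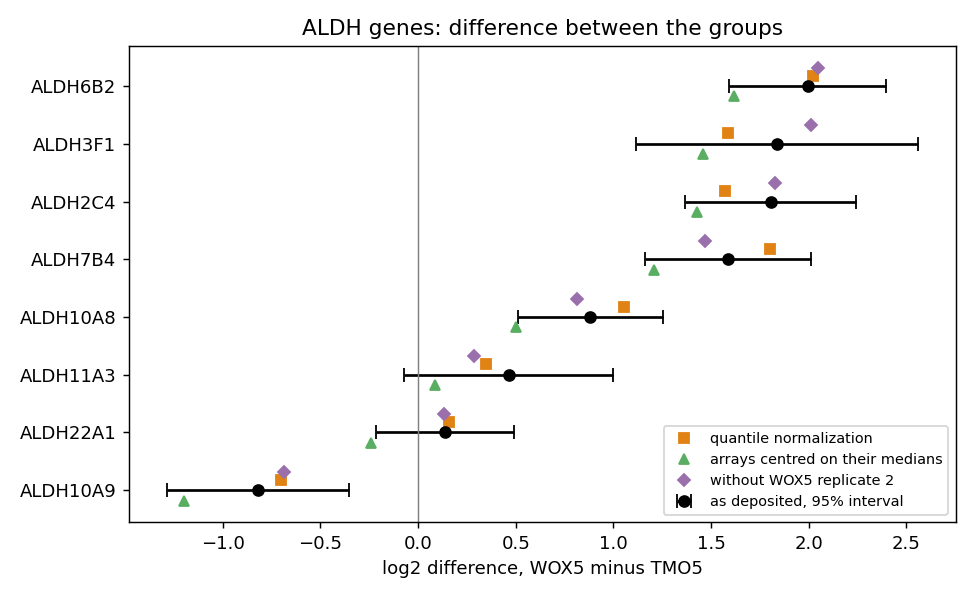
Log2 difference of each ALDH gene, WOX5 minus TMO5, with its 95% interval as deposited (black), and the values under 2 other scalings and without WOX5 replicate 2 (coloured). The intervals of ALDH11A3 and ALDH22A1 include 0, and the other 6 do not.

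Among the members that act in amino acid breakdown, ALDH6B2 (AT2G14170) encodes methylmalonate semialdehyde dehydrogenase, a mitochondrial enzyme of valine breakdown. Intensities on WOX5 arrays 1 to 3 were 1762, 1428 and 1440, compared with 379, 417 and 362 on TMO5 arrays 1 to 3. Every WOX5 array was far above every TMO5 array. The means were 1543 ± 190 (SD, n = 3) and 386 ± 28.4, a log2 difference of 2.0 ± 0.16 (SE; limma adjusted p = 0.00168). The call held under all 13 alternatives, with adjusted p up to 0.0249. The absolute difference exceeded that of 91.8% of probe sets.

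ALDH7B4 (AT1G54100) encodes a relative of animal antiquitin, which oxidises the semialdehyde formed in lysine breakdown, and is known in Arabidopsis as a gene induced by drought and salt. In WOX5 cells it read 2509, 3146 and 2445, compared with 885, 827 and 976 in TMO5 cells. The highest value came from WOX5 replicate 2, and the groups lay well apart. The means were 2700 ± 388 (SD, n = 3) and 896 ± 74.9, with a log2 difference of 1.58 ± 0.17 (SE; limma adjusted p = 0.00351). Without WOX5 replicate 2 the difference was 1.47, and the call held under all 13 alternatives, with adjusted p up to 0.0365.

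ALDH10A8 and ALDH10A9 encode aminoaldehyde dehydrogenases, which oxidise the aldehydes released from polyamines and, in plants that accumulate it, make glycine betaine. The ALDH10A8 protein (AT1G74920) is known from plastids. Its probe set gave 1805, 2041 and 1755 in WOX5 cells, compared with 933, 1031 and 1074 in TMO5 cells. All 3 WOX5 values were higher than any TMO5 value. The means of 1867 ± 153 (SD, n = 3) and 1013 ± 72.5 gave a log2 difference of 0.88 ± 0.15 (SE; limma adjusted p = 0.0126). The call was lost without TMO5 replicate 1 or TMO5 replicate 2 (limma adjusted p = 0.0509 and 0.0508) and with centred arrays, where the difference was 0.50 (limma adjusted p = 0.0661). A fit with the replicate number as a block also lost the call (limma adjusted p = 0.0714).

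ALDH10A9 (AT3G48170), whose protein is known from peroxisomes, was the 1 member lower in WOX5 cells. The 3 WOX5 intensities were 937, 708 and 934, and the 3 TMO5 intensities were 1331, 1556 and 1650. WOX5 replicate 2 was the lowest array, and the groups did not overlap. The means were 860 ± 132 (SD, n = 3) and 1512 ± 164, with a log2 difference of -0.82 ± 0.19 (SE; limma adjusted p = 0.0307). Without WOX5 replicate 2 the difference was -0.69 and still passed. Leaving out any other array ended the call, with limma adjusted p of 0.0645 and 0.0627 without WOX5 replicates 1 and 3, and 0.0606, 0.101 and 0.0948 without TMO5 replicates 1, 2 and 3. So did a fit with the replicate number as a block (limma adjusted p = 0.102).

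Because both ALDH10 probe sets were read on the same arrays, their log2 ratio was also taken within each array. The log2 ratio of ALDH10A8 to ALDH10A9 was 0.95, 1.53 and 0.91 in WOX5 cells, compared with -0.51, -0.59 and -0.62 in TMO5 cells. The groups were separate, and WOX5 replicate 2 was the highest. Probe sets of different genes bind with unequal strength, so the difference between groups can be read and the sign of a single ratio cannot. That difference was 1.70 in log2, from 1.13 ± 0.35 (SD, n = 3) in WOX5 to -0.58 ± 0.06 in TMO5 cells, and 1.5 without WOX5 replicate 2. Since 1 gene of the pair was higher and the other lower with no overlap, the ratio had to separate the groups, and it is given as a description without a test. A common scaling of an array cancels in this ratio.

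**Figure D3:**
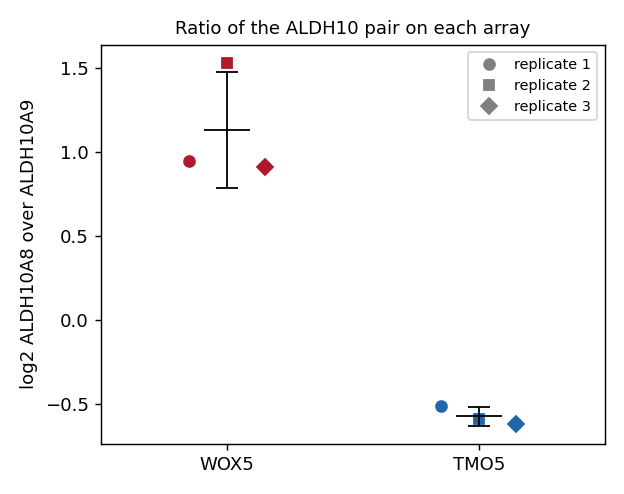
Log2 ratio of the ALDH10A8 to the ALDH10A9 intensity on each array, with marker shape for the replicate number and black bars for the mean and SD of each group. The 3 WOX5 arrays lie between 0.91 and 1.53 and the 3 TMO5 arrays between -0.62 and -0.51.

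ALDH2C4 (AT3G24503), also called REF1, encodes the enzyme that oxidises coniferaldehyde and sinapaldehyde to ferulic and sinapic acid. WOX5 intensities were 404, 405 and 441, compared with TMO5 intensities of 129, 133 and 98.4. The WOX5 arrays were tightly grouped, with a coefficient of variation of 5.15%, and lay above all TMO5 arrays. The means were 417 ± 21.4 (SD, n = 3) and 120 ± 18.9, and the log2 difference was 1.81 ± 0.18 (SE; limma adjusted p = 0.00264). The call held under all 13 alternatives, with adjusted p up to 0.0312.

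ALDH3F1 (AT4G36250) belongs to a family of enzymes with broad use of aliphatic aldehydes. It was dim, at 126, 92.1 and 138 in WOX5 cells, compared with 33.1, 44.2 and 24 in TMO5 cells. The groups did not overlap, and WOX5 replicate 2 was the lowest of its group. The background level, set from bacterial control probe sets without a spike, was 30.8 in WOX5 and 23.4 in TMO5. The TMO5 values were thus close to background, with a geometric mean of 32.7. The means were 119 ± 24 (SD, n = 3) and 33.8 ± 10.1, with a log2 difference of 1.84 ± 0.29 (SE; limma adjusted p = 0.0102), the widest error among the 8 genes. Without WOX5 replicate 2 the difference was 2.01, and no single array ended the call when left out. A fit with the replicate number as a block did end the call (limma adjusted p = 0.0610).

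ALDH11A3 (AT2G24270) encodes the non-phosphorylating glyceraldehyde-3-phosphate dehydrogenase of the cytosol, which makes NADPH. It was at or near background, at 25.6, 40.3 and 30.5 in WOX5 cells, compared with 21.2, 25.6 and 22.2 in TMO5 cells. The groups only just failed to overlap, and 1 array, WOX5 replicate 2, was set apart from the rest. The log2 difference of 0.46 did not pass (limma adjusted p = 0.178), with a 95% interval from -0.07 to 1.0, and was 0.29 without WOX5 replicate 2. These values are too close to background to give a fold change.

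ALDH22A1 (AT3G66658), of a family found in plants, was the member with the smallest difference. It read 692, 744 and 784 in WOX5 cells, compared with 653, 643 and 723 in TMO5 cells, well above background in both groups. The groups overlapped, since TMO5 replicate 3 was brighter than WOX5 replicate 1. The means were 740 ± 46.2 (SD, n = 3) and 673 ± 43.4, and the log2 difference was 0.14 (limma adjusted p = 0.528), with a 95% interval from -0.22 to 0.49. With centred arrays the difference was -0.24 (limma adjusted p = 0.292). The interval leaves room for a difference in either direction, and its ends are smaller in size than the differences of the 6 members that passed.

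The other genes of the pathways in which ALDH enzymes act were taken from 9 lists by locus. A named probe set existed for 24 of their 78 genes, of which 14 were higher in WOX5 cells, 0 lower and 10 did not pass. At an unadjusted limma p under 0.05, 1 was lower. The 58.3% that were called can be read against 23.8% of all probe sets, and the median log2 difference was 0.77 against 0.03. The share called over all probe sets was larger in a refit without the dim ones. With that filter, 3858 of 16807 were higher and 3117 lower, and 15 pathway genes were higher and 0 lower. The refit had its own variances and p-value adjustment, so the part of brightness in the larger share cannot be read from it. With quantile normalization 10 were higher and 1 lower, and with centred arrays 8 were higher and 2 lower. The count of higher genes fell to 7 without TMO5 replicate 1, to 8 without TMO5 replicate 2 or 3 and to 9 without WOX5 replicate 1 or 3. It was 12 without WOX5 replicate 2.

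The list of lysine breakdown and pipecolate genes, around the step of ALDH7B4, held the largest difference among genes above background in both groups. Of 3 measured, 2 were higher and 0 lower. AT4G33150, listed as LKR/SDH, encodes the bifunctional enzyme that begins lysine breakdown. Its 3 WOX5 values were 522, 439 and 513, compared with TMO5 values of 54.6, 36.1 and 33.7. All WOX5 arrays were far above the TMO5 arrays, a 12.1-fold difference (log2 3.60 ± 0.23, SE; limma adjusted p = 0.00112). D2HGDH, which encodes D-2-hydroxyglutarate dehydrogenase, read 175, 237 and 173 against 50.9, 74.5 and 67.9, a 3.04-fold difference (limma adjusted p = 0.00730). Both calls held under all 13 alternatives. AT5G52810, listed as SARD4, belongs to the pipecolate part of this list. Its means were 66.3 ± 14.6 (SD, n = 3) for WOX5 and 98.0 ± 7.28 for TMO5. It did not pass (limma adjusted p = 0.0962), but did as lower with quantile normalization (0.0289) and with centred arrays (0.0225).

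Genes of branched-chain amino acid breakdown, around the step of ALDH6B2, were higher in 5 of 8 cases and lower in 0. AT5G09300, placed on this list by its locus, read 1656, 2178 and 1568 in WOX5 cells, compared with 355, 287 and 384 in TMO5 cells. The groups were clearly separate, a 5.25-fold difference (log2 2.39 ± 0.21, SE; limma adjusted p = 0.00199). AT4G20930 read 76.4, 113 and 70.7 in WOX5 cells, compared with 6.94, 16.4 and 2.76 in TMO5 cells. The TMO5 values lay within background, and the difference was at least 3.62-fold (limma adjusted p = 0.0158). Its call was lost without TMO5 replicate 1 (limma adjusted p = 0.0517).

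Electrons from some mitochondrial dehydrogenases of these pathways pass through the electron transfer flavoprotein and its oxidoreductase ETFQO. The ALDH enzymes pass theirs to NAD or NADP instead. The flavoprotein subunit gene ETFBETA was 3.21-fold higher in WOX5 cells, at 394 ± 34.8 (SD, n = 3) against 123 ± 15.1 (limma adjusted p = 0.00277). The other subunit gene, ETFALPHA, was 1.70-fold higher (limma adjusted p = 0.0315), as was IVD, which encodes isovaleryl-CoA dehydrogenase, at 1.71-fold (limma adjusted p = 0.0409). Without WOX5 replicate 2 the adjusted p was 0.0592 for ETFALPHA and 0.0774 for IVD. Quantile normalization (limma adjusted p = 0.0758 and 0.145) and centring (0.138 and 0.185) also ended both calls, as did leaving out any 1 TMO5 array (up to 0.106 and 0.128), and that of ETFALPHA without WOX5 replicate 1 (0.0903) and that of IVD without WOX5 replicate 3 (0.108). A fit with the replicate number as a block lost the calls of ETFALPHA and IVD too (limma adjusted p = 0.0950 and 0.121). Of the same list, MCCA (log2 difference 0.53), MCCB (0.21) and ETFQO (0.18) missed the threshold. MCCA, at a limma adjusted p of 0.0675, passed as higher with the filter on dim probe sets (0.0338), with the floor at each array's 20th percentile (0.0285) and in a robust fit with an intensity trend (0.0223), and its difference was 0.15 with centred arrays.

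Polyamine oxidation makes the aldehydes on which the ALDH10 enzymes act. Of 3 measured genes, 2 were higher and 0 lower. CuAO1, a copper amine oxidase gene, read 324, 190 and 341 in WOX5 cells, compared with 76.8, 149 and 115 in TMO5 cells, a 2.52-fold difference (limma adjusted p = 0.0448). AT2G42490 was 1.72-fold higher, at 869 ± 106 (SD, n = 3) against 506 ± 51.5 (limma adjusted p = 0.0268). Both groups were separate, but CuAO1 spread widely within each. Centring ended both calls (limma adjusted p = 0.0991 and 0.119), as did leaving out any 1 TMO5 array (up to 0.108 and 0.0834), WOX5 replicate 1 (0.119 and 0.0660) or WOX5 replicate 3 (0.117 and 0.0722). The call of CuAO1 was also lost with quantile normalization (0.105). With the replicate number as a block, neither CuAO1 nor AT2G42490 passed (limma adjusted p = 0.123 and 0.110).

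Of 2 proline genes, DELTA-OAT, which encodes ornithine aminotransferase, was 2.93-fold higher in WOX5 cells, at 296 ± 60.9 (SD, n = 3) against 99.5 ± 3.51 (limma adjusted p = 0.00496). Of 2 genes of fermentation and acetate use, ACS, which encodes acetyl-CoA synthetase, was 2.26-fold higher, at 1289 ± 67.3 against 571 ± 14.8 (limma adjusted p = 0.00416). Both kept their call under all 13 alternatives. PDC2, a pyruvate decarboxylase gene, stood at 67.3 ± 23.5 in WOX5 and 69.7 ± 7.72 in TMO5 cells and did not pass.

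Of 3 genes around glyceraldehyde-3-phosphate, the substrate of the ALDH11A3 enzyme, 2 were higher and 0 lower. AT1G56190 was 1.94-fold higher (limma adjusted p = 0.0372) and GAPC2, a cytosolic glyceraldehyde-3-phosphate dehydrogenase gene, 1.59-fold higher, at 8177 ± 496 (SD, n = 3) against 5127 ± 205 (limma adjusted p = 0.0225). Centring ended both calls (limma adjusted p = 0.123 and 0.177), and so did leaving out any 1 array except WOX5 replicate 2 (up to 0.109 and 0.0883). The call of AT1G56190 was also lost with quantile normalization (0.0893). With the replicate number as a block, neither AT1G56190 nor GAPC2 passed (limma adjusted p = 0.122 and 0.0989). TPI, the triose phosphate isomerase gene, missed the threshold at a log2 difference of -0.19, but passed as lower with centred arrays, at -0.56 (limma adjusted p = 0.0403), and its sign turned with quantile normalization, at 0.20.

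Of 6 genes listed around aldehyde reduction, only AOR and AER were measured, and the AKR4C genes of that list had no named probe set. AOR was higher, at 87.1 ± 20.2 (SD, n = 3) in WOX5 against 13.7 ± 5.34 in TMO5 cells. Its TMO5 values lay within background, so the difference was at least 3.65-fold (limma adjusted p = 0.00692). AER stood at 48.1 ± 15.8 and 50.6 ± 9.34 and did not pass. The 1 measured gene of the GABA list, AT1G08230, was near background in both groups, with a log2 difference of -0.66 ± 0.81 (SE; limma adjusted p = 0.598) that was 0.20 without WOX5 replicate 2. For the 9 phenylpropanoid genes on the lists there was no named probe set.

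**Figure D4:**
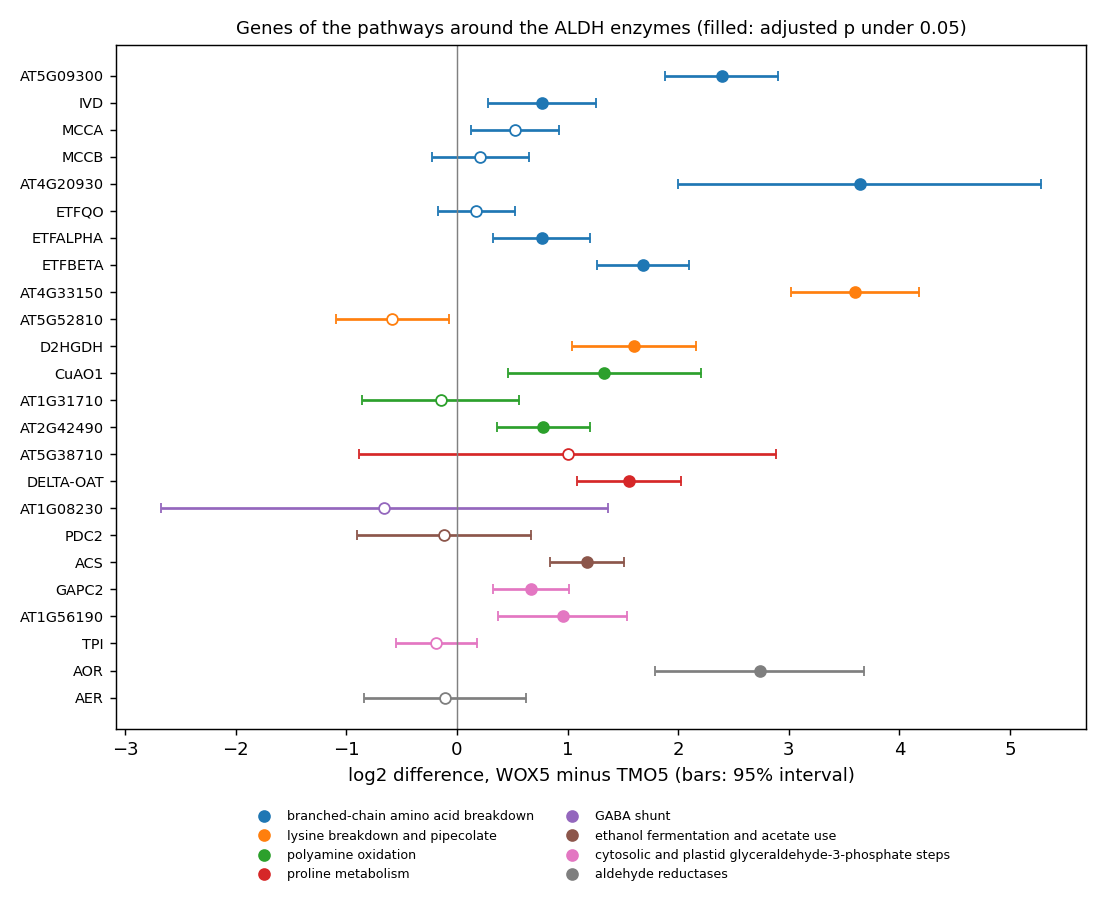
Log2 difference, WOX5 minus TMO5, of the 24 measured genes of the pathways around the ALDH enzymes, with 95% intervals and colour by list. Filled points passed the test, and all 14 of them lie to the right of 0.

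Patterns over the 6 arrays were compared by the distance between log2 values after subtracting each gene's own mean, over 9671 genes above background in at least 1 group. Genes chosen as nearest have alike differences and array patterns by construction, so their values are a description. Nearest to ALDH6B2 were AT3G23080, ATB2 and CPI1, at distances of 0.18, 0.26 and 0.32. Their log2 differences were 1.92, 2.14 and 1.87. Nearest to ALDH7B4 were AT5G47180, AT5G14500 and AT3G12710, at 0.16, 0.16 and 0.21, with log2 differences of 1.51, 1.59 and 1.69, and all 3 were highest on WOX5 replicate 2, as ALDH7B4 was. Nearest to ALDH10A9 were AT3G02640, AT5G05450 and AT1G06900, at 0.05, 0.08 and 0.09, with log2 differences of -0.80, -0.79 and -0.86. Among the ALDH genes themselves, ALDH6B2 and ALDH2C4 were the closest pair, at 0.45, and ALDH6B2 and ALDH10A9 the farthest apart, at 3.47.

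The genes next to each ALDH gene along its chromosome were found from the TAIR10.1 gene table. Of 16 such neighbours, 7 had a named probe set, 3 of which were higher in WOX5 cells and 0 lower, where 14.3% and 9.49% of all probe sets were. Both neighbours of ALDH10A8 were measured and higher, AT1G74910 by 1.75-fold (limma adjusted p = 0.0402) and ORA47 by 2.95-fold (limma adjusted p = 0.0333). The third was AT2G24280 beside ALDH11A3, at 3.63-fold (limma adjusted p = 0.0143). Neither neighbour of ALDH10A9 had a named probe set. A fit with the replicate number as a block lost the calls of AT1G74910 and ORA47 (limma adjusted p = 0.0792 and 0.104). The call of AT1G74910 was lost with quantile normalization and with centred arrays (limma adjusted p = 0.143 and 0.171) and when any 1 array except WOX5 replicate 2 was left out (up to 0.125), that of ORA47 when any 1 array except TMO5 replicate 1 was left out (up to 0.104), and that of AT2G24280 without WOX5 replicate 1 or TMO5 replicates 2 or 3 (up to 0.0529).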

How the data were processed

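Intensity values on a linear scale were deposited by the authors for 6 Affymetrix arrays. Each array had a trimmed mean of 250.0, so the values share a scale as deposited, and they were used as they stand. The software behind these values: not given in the sources used here. Values below 1 (1036 of them) were set to 1 and log2 was then taken. The 64 control probe sets were left out, and 22746 were fitted without a filter, using lmFit and eBayes of limma 3.58.1 (R 4.3.3) and Benjamini-Hochberg adjustment. Arrays have no read depth, and their number limits the precision.

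Background was the 95th percentile of 27 unspiked bacterial control probe sets, from group mean log2 values. A fold against a group within background is a lower bound against that level.

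Genes were named from the platform annotation and the TAIR10.1 gene table, for 13513 probe sets with 1 gene. No sequence was used, and coordinates of the gene table served only to find neighbouring genes. The ALDH genes and all lists were chosen with earlier results of these data known. Named genes were all ALDH genes, up to 2 genes higher and 2 lower per list (or the smallest p where none passed), and the 3 nearest patterns to ALDH6B2, ALDH7B4 and ALDH10A9. Neighbouring genes and other pathway genes were named after their values were seen.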

Additional observations from a re-analysis of the deposited data

How the results depend on the processing

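Under 13 alternatives, ALDH2C4, ALDH6B2 and ALDH7B4 kept their direction and call in every case, and ALDH3F1 in 12. Over the 8 ALDH genes, 103 values were recomputed, of which 91 kept direction and side of the threshold and 11 lost the call. The sign turned in 1, ALDH22A1, at -0.24 with centred arrays. ALDH11A3 has no value with the filter on dim probe sets, which removed it. No ALDH gene had another probe set, so that alternative was not run. TPI turned to 0.20 with quantile normalization, and AT1G08230 ranged from -1.24 to 0.20 when 1 array was left out, turning without WOX5 replicate 2.

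Same-numbered arrays had correlations of deviations of -0.05, 0.02 and 0.02, so no shared effect of the replicate number in the titles was seen. These values cannot show whether same-numbered arrays were prepared together. With a replicate block, 3 ALDH genes were higher and 0 lower in limma (1 lower at an unadjusted p under 0.05), with ALDH3F1, ALDH10A8 and ALDH10A9 at adjusted p of 0.0610, 0.0714 and 0.102, 8 pathway genes were higher, and 1719 probe sets were higher and 551 lower. When 1 array was left out, 0 to 1 ALDH genes were lower (limma, 1 in each case at an unadjusted p under 0.05) and 4 to 5 higher, and 7 to 12 pathway genes were higher. Over all probe sets 2101 to 2854 were then higher and 726 to 2000 lower. With centred arrays 5297 probe sets were lower, with 8 pathway genes higher and 2 lower, and with quantile normalization 1 pathway gene was lower. Raising the floor to the 20th percentile gave 3247 lower probe sets, and a robust fit with an intensity trend gave 3314. The cause of these shifts was not tested.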
